A study of Mus musculus with 15 samples.

Results

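The 77 genes described here encode proteins of the mitochondrial ribosome. The gene family was picked with earlier results of these data known, and its members were then taken by their names, without use of differences between the groups. They are the genes whose symbol is Mrpl or Mrps, for the large or small mitochondrial subunit, followed by a number and at most 1 letter from a to d, taken from array probe sets annotated with exactly 1 gene symbol. A gene with several such probe sets was represented by the one with the highest mean over all 15 arrays. The 77 genes are 77 of 19933 genes tested, and all 77 matched RefSeq gene identifiers with 0 changed symbols. Of 78 RefSeq protein-coding genes whose names fit the rule, 1 was not included: Mrpl53 shares its probe set with Ccdc142.

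The study compared versions of GATA1, the zinc finger transcription factor that drives red cell maturation, in G1E cells. G1E is a mouse proerythroblast line made from GATA1-null embryonic stem cells, so every group lacked its own GATA1. Each group carried GATA1-ER, a fusion of GATA1 to the hormone-binding domain of the estrogen receptor that acts when estradiol is given. The groups were GATA1-ER with the amino-terminal zinc finger substitutions R216Q, R216W, D218G and D218Y, and wild-type GATA1-ER (WT), with 3 biological replicates each. All 15 cultures had received 100 nM estradiol for 24 hours, and untreated cells were not analysed here. The labels do not say if a group is 1 clone or a pool of transduced cells, so the effect of a substitution and that of the cell line carrying it cannot be told apart.

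Mitochondrial ribosomes translate the few messages of mitochondrial DNA, all of which code for subunits of the respiratory chain and ATP synthase. Their RNAs come from mitochondrial DNA, but every ribosomal protein is encoded in the nucleus, translated in the cytosol and imported. Erythroid precursors need mitochondria for haem synthesis and clear them at the end of maturation. The 77 genes fall into 30 for large subunit proteins with a bacterial relative, 20 for large subunit proteins counted as mitochondria-specific, 16 for small subunit proteins with a bacterial relative and 10 for small subunit proteins counted as mitochondria-specific. Mrps18a and Mrps30 are counted in the large subunit, where their proteins sit. Mrps36, 1 further gene, keeps a ribosomal name although its product is now assigned to the oxoglutarate dehydrogenase complex.

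Values are log2 expression values of Affymetrix arrays after RMA, so a difference of 1 is a doubling, and no value is set against that of another probe set. Array values spanned 2.89 to 13.58. Array medians were 6.32 to 6.38 in R216Q, 6.32 to 6.36 in R216W and 6.25 to 6.40 in D218G. They were 6.24 to 6.29 in D218Y and 6.31 to 6.41 in WT, so all D218Y medians lay below all WT medians. All 77 genes had a mean level above the median gene. Such genes were called more often than dim ones, so shares of called genes are given both for all 19933 genes and for the 9966 genes above the median level. A change was called, and is written as rose or fell, where limma's moderated test gave an adjusted p under 0.05 after Benjamini-Hochberg adjustment over all genes tested. Gata1, which these arrays detect in all lines, had values of 12.14 to 12.16 in R216Q, 12.24 to 12.26 in R216W, 12.33 to 12.38 in D218G, 12.05 to 12.08 in D218Y and 12.35 to 12.36 in WT. The 7 erythroid marker genes tested averaged 10.81 to 10.83 in R216Q arrays, 11.02 to 11.04 in R216W, 10.80 to 10.85 in D218G, 9.39 to 9.43 in D218Y and 11.26 to 11.28 in WT. These 7 were Klf1, Tal1, Epor, Tfrc, Alas2, Slc4a1 and Epb42. All 7 fell in D218Y against WT, with changes from -0.28 in Klf1 to -5.6 in Slc4a1. In R216Q 6 fell, in R216W 3 and in D218G 6, and 0 rose in any mutant against WT. The 8 mast cell markers averaged 5.48 to 5.56 in D218Y arrays, against 4.77 to 4.86 in WT arrays. In D218Y cells 3 of these 8 rose (Tpsab1, Ms4a2 and Cpa3), Mcpt4 fell, and Cma1, Fcer1a, Mcpt8 and Tpsb2 were not called. No marker of granulocytes and monocytes, lymphocytes or stroma rose in any mutant against WT. The part of these cell-state markers, and of the Gata1 level, in the results below was not tested.

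Mitochondrial ribosomal protein genes were higher in D218Y cells than in WT cells, with smaller rises in D218G and R216Q and a mixed pattern in R216W. The mean of the 77 values was 9.62 to 9.70 in the R216Q arrays, 9.59 to 9.64 in R216W, 9.68 to 9.77 in D218G, 9.84 to 9.85 in D218Y and 9.58 to 9.59 in WT. The D218Y, D218G and R216Q arrays all lay above the WT arrays, and the D218Y arrays lay above every other array. After further quantile normalization the D218Y arrays averaged 9.80 to 9.82 and the WT arrays 9.60 to 9.61. D218Y was the line with the highest mean for 52 of the 77 genes, and WT was the line with the lowest mean for 37 and R216W for 24. A moderated F test over the 5 lines passed for 61 of 77 genes, where 41.9% of all genes tested and 72.6% of genes above the median level passed. In whole cultures, a change in how many cells are at a given stage and a change in RNA per cell cannot be told apart.

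**Figure D1:**
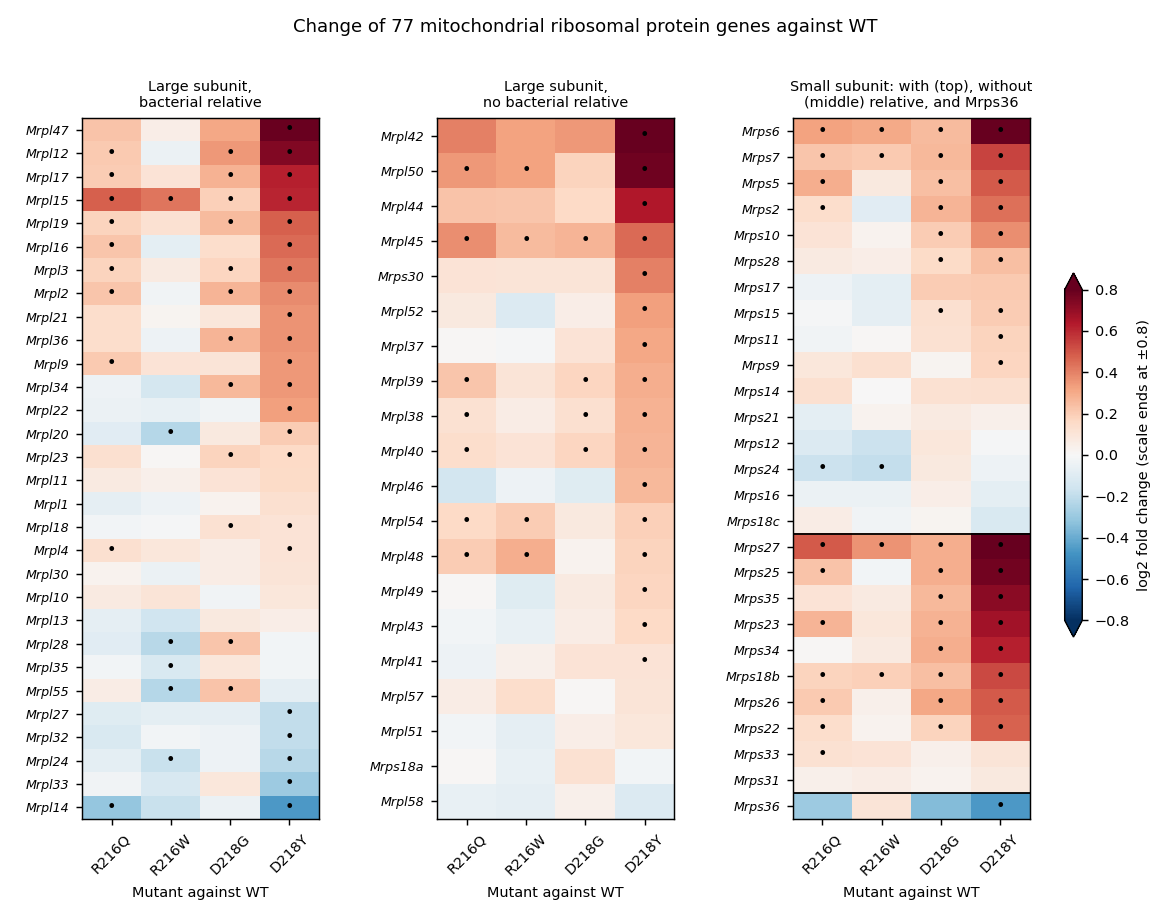
Log2 fold change of each of the 77 genes in the 4 mutant lines against WT, in columns, with genes in rows by subunit and ancestry and colour giving the fold change. The D218Y column holds most of the strong rises, with 50 genes called higher and 6 called lower.

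In D218Y cells 50 of the 77 genes rose and 6 fell against WT. That is 64.9% higher and 7.79% lower, where 20.3% of all genes tested were higher and 24.2% lower. Among genes above the median level, 37.6% were higher and 30.7% lower. The median change of the 77 was 0.21 on the log2 scale. It was -0.07 over all genes tested and -0.0 over genes above the median level. The 77 changes spanned -0.46 to 1.10. For 58 genes all 3 D218Y arrays lay above all 3 WT arrays, and for 8 all lay below. Such separation was not counted over all genes tested, so these counts have no background to be set against.

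Mrps6, a small subunit protein with a bacterial relative that sits at the platform, read 9.62, 9.57 and 9.58 in D218Y cells, against 8.64, 8.63 and 8.60 in WT cells. Its change of 0.97 ± 0.04 (SE) corresponds to 1.95-fold, with an adjusted p of 4.24e-11. All D218Y arrays stood nearly a doubling above all WT arrays. Mrps27, an RNA-binding small subunit protein with pentatricopeptide repeats, read 9.37, 9.23 and 9.36 in D218Y cells, against 8.46, 8.51 and 8.44 in WT cells. It rose by 0.85 ± 0.06, with an adjusted p of 1.01e-08, again without overlap between the groups. Mrps25, a mitochondria-specific small subunit protein, read 9.07, 8.99 and 9.14 in D218Y cells, against 8.28, 8.30 and 8.30 in WT cells, a rise of 0.77 ± 0.06 (adjusted p 4.69e-08).

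Among large subunit genes, Mrpl42 had the highest fold change and also the widest spread. It read 8.36, 8.36 and 8.55 in D218Y cells, against 7.50, 7.54 and 6.93 in WT cells. The rise of 1.10 ± 0.16 (adjusted p 4.76e-05) includes 1 WT array, replicate 3, that lay far below the other two. Mrpl50, a mitochondria-specific protein, read 9.82, 9.71 and 9.78 in D218Y cells, against 8.99, 9.10 and 8.87 in WT cells, and rose by 0.78 ± 0.07 (adjusted p 3.65e-07). Mrpl12, the stalk protein that in human cells also binds the mitochondrial RNA polymerase, read 10.40, 10.42 and 10.38 in D218Y cells, against 9.65, 9.67 and 9.66 in WT cells. Its replicates differed by at most a few hundredths, and it rose by 0.74 ± 0.04 (adjusted p 5.94e-10). Its partner at the stalk base, Mrpl10, read 10.91, 10.89 and 10.82 in D218Y cells, against 10.80, 10.72 and 10.83 in WT cells, groups that overlapped. The change of Mrpl10 was 0.09 ± 0.05 and was not called (adjusted p 0.144).

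Mrpl44 and Mrpl45, whose proteins lie near the exit of the peptide tunnel, both rose in D218Y. Mrpl44, which has a ribonuclease III-like fold, read 8.63, 8.43 and 8.44 in D218Y cells, against 7.82, 7.79 and 7.98 in WT cells, a rise of 0.64 ± 0.08 (adjusted p 7.63e-06). Mrpl45, which helps to anchor the ribosome to the inner membrane, read 9.64, 9.56 and 9.58 in D218Y cells, against 9.17, 9.16 and 9.08 in WT cells, a rise of 0.45 ± 0.04 (adjusted p 6.85e-08). In both genes the lines did not overlap. Mrps12, the decoding-site protein, was not called: it read 7.85, 7.83 and 7.59 in D218Y cells, against 7.79, 7.70 and 7.81 in WT cells (-0.01 ± 0.06, adjusted p 0.915). After further quantile normalization its change was -0.17 and was called (adjusted p 0.0395).

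**Figure D2:**
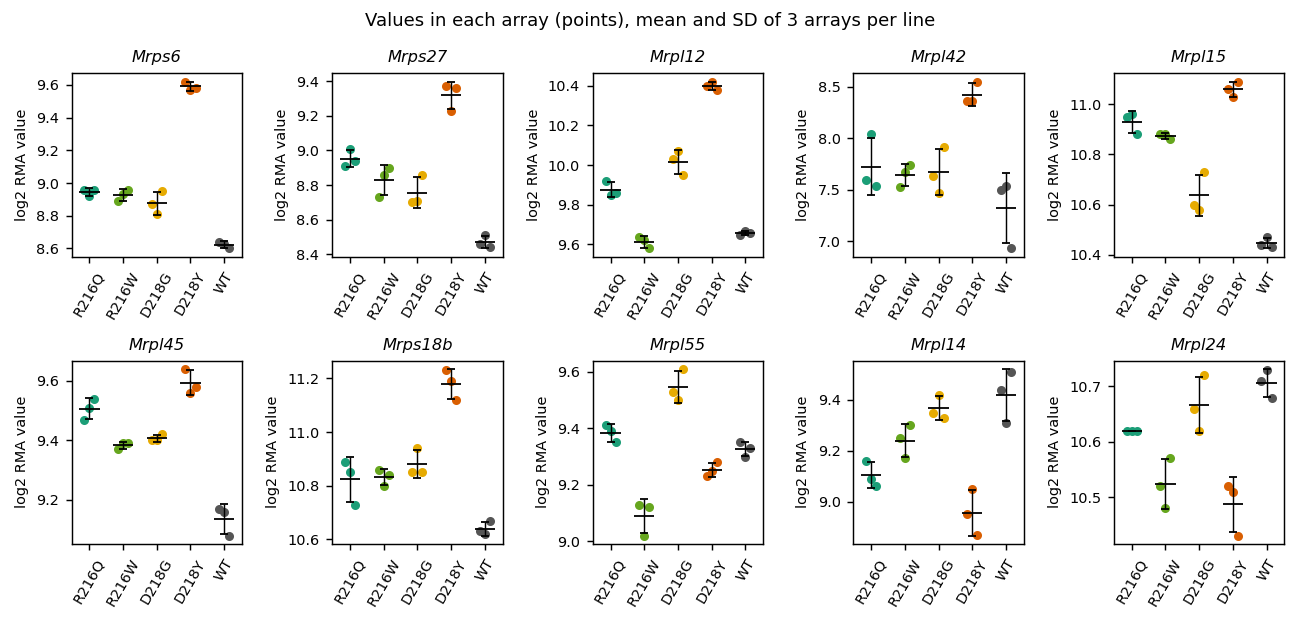
Log2 RMA values in every array (points) with the mean and SD of 3 arrays per line, for genes that rose, fell or were called in opposite directions, the mutant lines left of WT. The 3 Mrps6 points of D218Y lie between 9.57 and 9.62, above all other points, whereas those of Mrpl14 lie between 8.87 and 9.05, below all other points.

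The 6 genes that fell in D218Y were Mrpl14, Mrpl24, Mrpl27, Mrpl32, Mrpl33 and Mrps36. Mrpl14, an interface protein of the large subunit, read 8.95, 9.05 and 8.87 in D218Y cells, against 9.44, 9.31 and 9.51 in WT cells. Its fall of -0.46 ± 0.06 (adjusted p 1.17e-05) separated all arrays of the groups. Mrpl33 read 8.50, 8.42 and 8.44 in D218Y cells, against 8.71, 8.75 and 8.75 in WT cells, a change of -0.29 ± 0.05 (adjusted p 1.16e-04) that became -0.44 after further quantile normalization. Mrpl24 changed by -0.22 ± 0.04 (adjusted p 2.66e-04), with D218Y values of 10.52, 10.51 and 10.43 against WT values of 10.71, 10.73 and 10.68. These, with Mrpl27 and Mrpl32 at -0.20 each, are all large subunit proteins with bacterial relatives. Mrps36, the dehydrogenase complex subunit, read 9.28, 9.31 and 9.32 in D218Y cells, against 9.66, 9.91 and 9.70 in WT cells (-0.46 ± 0.12, adjusted p 0.00679). Mrpl27 has a further, dimmer probe set that read a mean of 8.26 in D218Y and 8.25 in WT, so its fall was seen with 1 of its 2 probe sets.

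In D218G cells 31 genes rose and 0 fell against WT by limma's test. That is 40.3% higher, where 10.3% of all genes tested and 19.9% of genes above the median level were higher, while 7.77% and 14.3% of these were lower. The median change of the 77 was 0.12, and 69 changes were above 0. Rises were small: Mrpl12 at 0.35 ± 0.04 (adjusted p 1.23e-05) read 10.03, 10.07 and 9.95 in D218G cells, against 9.65, 9.67 and 9.66 in WT cells. Mrps26, a mitochondria-specific small subunit protein, read 8.35, 8.24 and 8.44 in D218G cells, against 8.05, 8.13 and 7.93 in WT cells, a rise of 0.31 ± 0.06 (adjusted p 0.00179). Mrps34, another such protein, rose by 0.29 ± 0.07 (adjusted p 0.00778), with D218G values of 8.16, 8.07 and 8.33 against WT values of 7.80, 7.87 and 8.02. With the D218G and WT arrays fitted alone Mrps34 was not called (adjusted p 0.0726). Mrps36 read 9.41, 9.34 and 9.47 in D218G cells, against 9.66, 9.91 and 9.70 in WT cells. Its change of -0.35 ± 0.12 was not called (adjusted p 0.0613), but it was called lower after further quantile normalization (0.0463) or cyclic loess (0.0381), among genes above the median level (0.0341) and with these lines fitted alone (0.0275). It was also called lower without R216Q replicate 2 (0.0196), R216Q replicate 3 (0.024) or R216W replicate 2 (0.0411). D218G replicate 3 was the highest array of its line for 58 of the 77 genes. Its array median was 6.25, against 6.37 and 6.40 in the other D218G arrays. After further quantile normalization the mean of the 77 values was 9.72 in every D218G array. With the D218G and WT arrays fitted alone 18 genes were called. Without D218G replicate 3, 27 genes rose and 1, Mrpl27, fell, and the median change was 0.10.

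In R216Q cells 27 genes rose and 2 fell against WT. That is 35.1% higher and 2.60% lower, where 11.8% of all genes tested were higher and 9.65% lower, and 22.8% and 18.1% of genes above the median level. The median change was 0.08. Mrps27 read 8.91, 9.01 and 8.94 in R216Q cells, against 8.46, 8.51 and 8.44 in WT cells, and rose by 0.49 ± 0.06 (adjusted p 1.60e-05). Mrpl15, a large subunit protein with a bacterial relative, read 10.95, 10.96 and 10.88 in R216Q cells, against 10.44, 10.47 and 10.43 in WT cells, and rose by 0.48 ± 0.04 (adjusted p 7.12e-07). For both genes the groups were well apart. The falls were Mrpl14 at -0.31 ± 0.06 (adjusted p 0.00101) and Mrps24, a messenger-entry protein of the small subunit, at -0.17 ± 0.05 (adjusted p 0.0207). Mrpl14 read 9.16, 9.09 and 9.06 in R216Q cells, against 9.44, 9.31 and 9.51 in WT cells. Mrps24 read 9.64, 9.60 and 9.57 in R216Q cells, against 9.78, 9.68 and 9.85 in WT cells, and its call was lost without WT replicate 1 or 3 or R216Q replicate 2 or 3 (adjusted p 0.0568 to 0.106) and with these lines fitted alone (0.0635).

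In R216W cells 9 genes rose and 6 fell against WT, 11.7% higher and 7.79% lower. These shares were close to or below the background, with 9.36% of all genes tested higher and 7.23% lower, and 17.8% and 13.6% of genes above the median level. The median change was 0.02. After further quantile normalization 12 genes rose and 11 fell. With the fit and the adjustment both made on genes above the median level alone, 18 rose and 11 fell. Mrpl15 was the gene with the highest rise, at 0.43 ± 0.04 (adjusted p 3.76e-06), reading 10.88, 10.88 and 10.86 in R216W cells against 10.44, 10.47 and 10.43 in WT cells. Mrps27 followed at 0.36 ± 0.06 (adjusted p 3.55e-04), with R216W values of 8.73, 8.86 and 8.90 against WT values of 8.46, 8.51 and 8.44. The 6 genes that fell were Mrpl20, Mrpl24, Mrpl28, Mrpl35, Mrpl55 and Mrps24, by 0.12 to 0.23 on the log2 scale. Mrpl55, a large subunit protein related to bacterial L31, read 9.13, 9.02 and 9.12 in R216W cells, against 9.35, 9.30 and 9.33 in WT cells (-0.23 ± 0.04, adjusted p 7.94e-04). Mrpl24 read 10.52, 10.48 and 10.57 in R216W cells, against 10.71, 10.73 and 10.68 in WT cells (-0.18 ± 0.04, adjusted p 0.00359). Mrps24 read 9.58, 9.53 and 9.64 in R216W cells, against 9.78, 9.68 and 9.85 in WT cells (-0.19 ± 0.05, adjusted p 0.0139), a call lost without WT replicate 3 (adjusted p 0.0744) or R216W replicate 2 (adjusted p 0.0702), and with these lines fitted alone (0.0542).

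Across the mutants, 6 genes rose in all 4 against the shared WT arrays: Mrpl15, Mrpl45, Mrps6, Mrps7, Mrps18b and Mrps27. A further 17 rose in 3 mutants, 12 in 2 and 18 in 1, and 24 rose in none. These counts were not made for all genes tested, so their background is not known. The shared WT arrays also tie the 4 comparisons together. Mrps6 read 8.96, 8.92 and 8.96 in R216Q, 8.89, 8.93 and 8.96 in R216W, 8.87, 8.81 and 8.95 in D218G and 9.62, 9.57 and 9.58 in D218Y, against 8.64, 8.63 and 8.60 in WT. Its rises in R216Q, R216W and D218G were 0.32, 0.30 and 0.25 (SE 0.04 each), so that these lines formed a middle step and D218Y an upper one. Mrps7, singled out after its values were seen, is a head protein that binds early in small subunit assembly. It rose by 0.22 ± 0.04 in R216Q, 0.21 ± 0.04 in R216W, 0.26 ± 0.04 in D218G and 0.54 ± 0.04 in D218Y (adjusted p 0.00103 in R216W and lower in the others).

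The 3 proteins related to bacterial S18 behaved differently. Mrps18b, a small subunit protein, read 10.89, 10.85 and 10.73 in R216Q, 10.86, 10.80 and 10.84 in R216W, 10.85, 10.94 and 10.85 in D218G and 11.23, 11.19 and 11.12 in D218Y, against 10.63, 10.62 and 10.67 in WT. It rose in all 4 mutants, by 0.18, 0.19, 0.24 and 0.53 (SE 0.05 each), and the R216Q call was lost without R216Q replicate 1 (adjusted p 0.0665). Mrps18a, whose protein lies in the large subunit, changed by -0.02 ± 0.04 in D218Y, and Mrps18c, in the small subunit, by -0.12 ± 0.06. Neither of these was called in any mutant against WT, with adjusted p-values from 0.0572 to 0.959. However, Mrps18a was called higher in D218G after further quantile normalization (adjusted p 0.0308), among genes above the median level (0.0198) and with eBayes trend and robust options (0.0161). It was also called higher there without WT replicate 3 (0.0499) or R216Q replicate 3 (0.0346). Mrps18c was called lower in D218Y after cyclic loess (adjusted p 0.0414).

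By subunit and ancestry, the mitochondria-specific classes held the higher shares of rises in D218Y. Of the 10 mitochondria-specific small subunit genes 8 rose and 0 fell, with a median change of 0.58. The others, Mrps31 and Mrps33, were not called. Of the 20 mitochondria-specific large subunit genes 16 rose and 0 fell, with a median of 0.26. Of genes for proteins with a bacterial relative, 9 of 16 in the small subunit rose and 0 fell (median 0.19), and 17 of 30 in the large subunit rose and 5 fell (median 0.15). In D218G the small mitochondria-specific class had 8 rises of 10 and a median of 0.27, but the large mitochondria-specific class had the lowest share, 4 of 20 (20.0%, median 0.10), against 7 of 16 small and 12 of 30 large subunit genes with a bacterial relative. In R216Q, 7 of 10 small and 7 of 20 large mitochondria-specific genes rose, against 4 of 16 small and 9 of 30 large ones with a bacterial relative. In R216W the mitochondria-specific counts were 2 of 10 small and 4 of 20 large, against 2 of 16 small and 1 of 30 large with a bacterial relative. These are counts in classes of unequal size, and no test of the difference between classes was made.

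**Figure D3:**
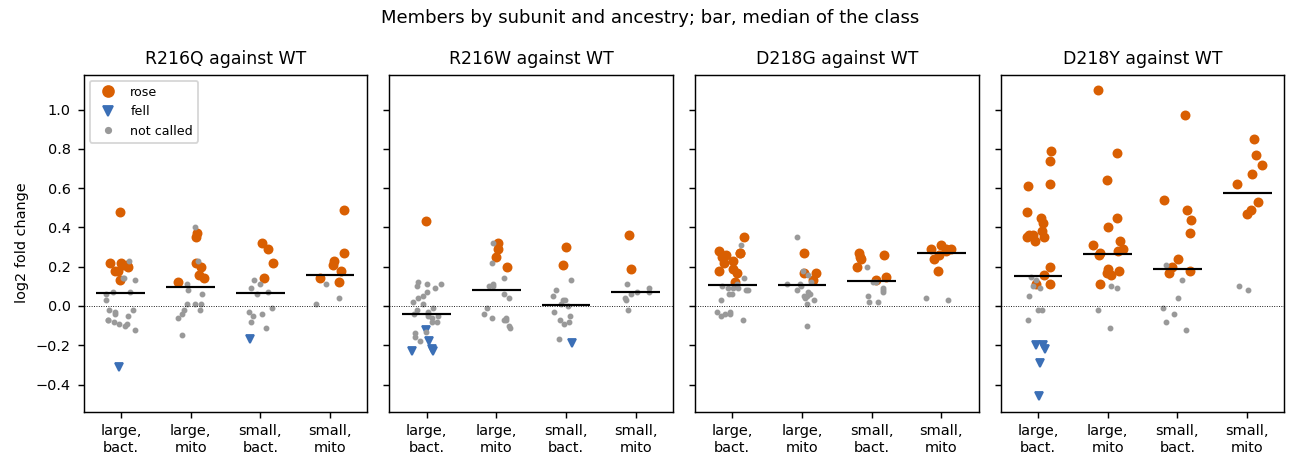
Log2 fold change against WT of each gene (points), by subunit and ancestry, with 1 panel per mutant line and a bar at the class median. The small mitochondria-specific class has medians of 0.16 in R216Q, 0.07 in R216W, 0.27 in D218G and 0.58 in D218Y.

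Substitutions at the same residue were compared directly. In D218Y against D218G cells 37 genes rose and 9 fell, 48.1% higher and 11.7% lower. Of all genes tested 17.4% were higher and 15.6% lower, and of those above the median level 32.3% and 24.0%. The median was 0.11, and the D218Y mean lay above the D218G mean for 58 of 77 genes. Mrps6 differed by 0.71 ± 0.04 (adjusted p 2.57e-09), with D218Y values of 9.62, 9.57 and 9.58 against D218G values of 8.87, 8.81 and 8.95. Mrpl14 differed by -0.41 ± 0.06 (adjusted p 5.81e-05), with D218Y values of 8.95, 9.05 and 8.87 against D218G values of 9.35, 9.42 and 9.33. The other 8 falls, Mrpl24, Mrpl28, Mrpl32, Mrpl33, Mrpl35, Mrpl55, Mrpl58 and Mrps18a, were likewise all large subunit genes.

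In R216W against R216Q cells there were 1 rise and 13 falls. That is 1.30% higher and 16.9% lower, where 8.25% of all genes tested were higher and 8.65% lower, and 15.8% and 16.7% of genes above the median level. The share of falls among the 77 was thus near that of genes of like level. The median was -0.06, and 9 genes were called without R216Q replicate 1 or without R216Q replicate 2, and with these lines fitted alone. Mrpl16, a large subunit protein near the peptidyl transferase centre, read 9.73, 9.80 and 9.81 in R216W cells, against 10.08, 10.11 and 10.06 in R216Q cells (-0.30 ± 0.05, adjusted p 4.24e-04). Mrpl12 read 9.64, 9.62 and 9.58 in R216W cells, against 9.92, 9.85 and 9.86 in R216Q cells (-0.26 ± 0.04, adjusted p 1.80e-04). Both genes rose in R216Q against WT, whereas in R216W against WT they changed by -0.08 ± 0.05 and -0.05 ± 0.04 and were not called. The 1 rise was Mrps36 (0.38 ± 0.12, adjusted p 0.0433), a call lost without WT replicate 1 or 3, R216Q replicate 1 or 3, R216W replicate 1 or 3, D218G replicate 1 or any D218Y replicate (adjusted p 0.052 to 0.216). Its value was 0.24 without R216Q replicate 3. The call was also lost with these lines fitted alone (adjusted p 0.129), with a replicate block (0.0733) and with the mean of its probe sets (0.0745). Mrpl45 fell by 0.12 on the log2 scale, and its call was lost without R216Q replicate 2 or 3 or any R216W replicate (adjusted p 0.0732 to 0.126), with these lines fitted alone (0.0587) and with a replicate block (0.0651). These pairs of lines share no arrays. Across the 77 genes, which are not independent replicates, the R216W against R216Q and D218Y against D218G changes had a Pearson's r of -0.20. The sign of this r depends on which line of each pair is put first, and no r over all genes tested is given.

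Genes that work with the mitochondrial ribosome were then counted from lists of known function. Of 4 ribosomal proteins that carry other names (Dap3, Gadd45gip1, Ptcd3 and Chchd1), 4 rose in D218Y, 3 in D218G, 3 in R216Q and 1 in R216W, and 0 fell. Ptcd3, a small subunit protein with pentatricopeptide repeats, read 10.47, 10.46 and 10.55 in D218Y cells, against 9.57, 9.77 and 9.60 in WT cells (0.85 ± 0.07, adjusted p 1.76e-07). Of 13 translation factors of the organelle 9 rose and 0 fell in D218Y. Among them Tsfm, an elongation factor, rose by 1.03 ± 0.06 (adjusted p 1.29e-09) with values of 10.08, 10.11 and 10.01 in D218Y against 9.08, 8.90 and 9.11 in WT. Of 16 mitochondrial tRNA synthetases 13 rose, led by Yars2 at 1.11 ± 0.08 (adjusted p 1.33e-08), and 2 fell, with Fars2 at -0.30 ± 0.06 (adjusted p 7.85e-04). Of 25 factors of ribosome assembly and RNA modification 21 rose and 3 fell. The GTPase Gtpbp10 rose by 1.00 ± 0.10 (adjusted p 1.03e-06), and the ribosomal RNA methyltransferase Mrm1 fell by 0.83 on the log2 scale (SE 0.05, adjusted p 2.53e-09).

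Genes for replication and transcription of mitochondrial DNA and for protein import also rose in D218Y. Of 12 in the first group 10 rose and 0 fell. Top1mt, the mitochondrial topoisomerase, read 9.26, 9.10 and 9.15 in D218Y cells, against 6.68, 6.59 and 6.37 in WT cells (2.62 ± 0.08, adjusted p 1.61e-12). Of 25 import genes 20 rose and 1 fell. Timm8a1, an intermembrane-space chaperone, read 9.60, 9.62 and 9.71 in D218Y cells, against 8.0, 8.14 and 8.04 in WT cells (1.58 ± 0.06, adjusted p 3.46e-11). The nuclear genes of the respiratory chain did not move as a group: of 72 tested, 19 rose and 18 fell in D218Y, with a median of 0.01. Cyc1, of complex III, rose by 0.31 ± 0.04 (adjusted p 4.15e-06), and Ndufa6, of complex I, fell by 0.55 on the log2 scale (SE 0.04, adjusted p 8.97e-09). In D218G against WT, rises were called in 6 of 13 translation factors, 9 of 16 synthetases, 12 of 25 assembly factors, 6 of 12 mitochondrial DNA genes, 14 of 25 import genes and 7 of 72 respiratory chain genes. Falls there were 1 assembly factor and 3 respiratory chain genes. The rises in R216Q in the same order were 6, 4, 10, 5, 12 and 6, and the falls were 1 synthetase, 1 assembly factor, 1 import gene and 8 respiratory chain genes. In R216W the rises were 4, 0, 4, 4, 3 and 2, and the falls were 2 assembly factors and 7 respiratory chain genes. Falls thus outnumbered rises among respiratory chain genes in R216Q and R216W, but their shares were below those of genes of like level. Of genes above the median level 18.1% fell in R216Q and 13.6% in R216W, and of all genes tested 9.65% and 7.23%. The backgrounds given above for each line apply to these counts too.

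**Figure D4:**
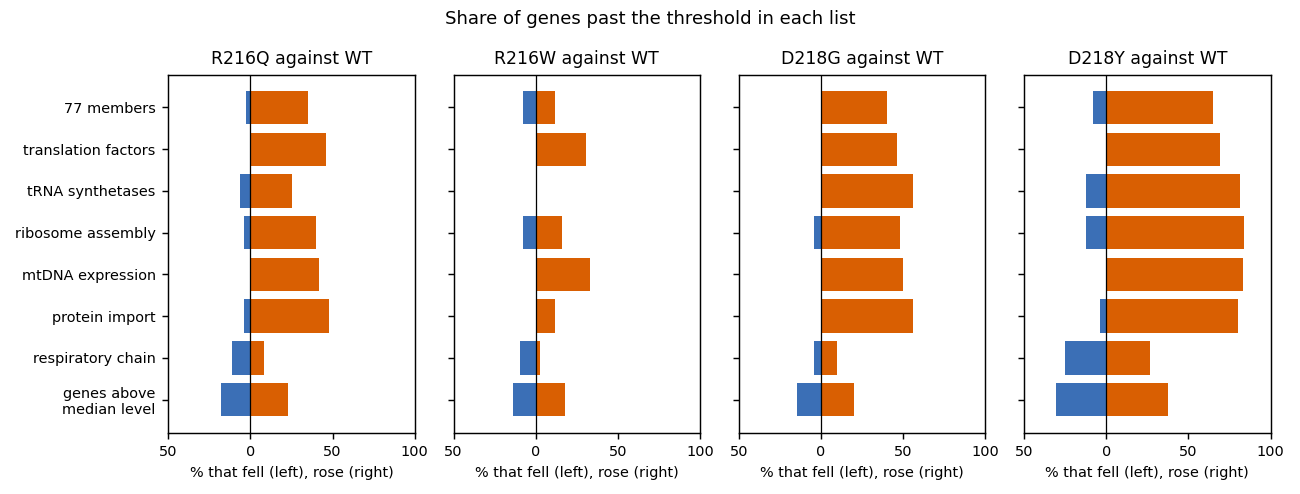
Share of genes in each list that rose (right of 0) or fell (left of 0) against WT, in percent, 1 panel per mutant line. Genes above the median level are shown for comparison. In D218Y 64.9% of the 77 genes rose, whereas 19 of 72 respiratory chain genes rose and 18 fell.

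Promoters were available for 68 of the 77 genes in the RefSeq table for build GRCm38.p6, which gives 250 bases before to 50 after the start of a gene. They are shown for genes that rose in D218Y (Mrps6, Mrps27 and Mrpl12) and for Mrpl14, which fell, so that letters of genes that moved in opposite directions can be set side by side. Capitals mark matches, on either strand, to the core of sites bound by ETS factors, Yin Yang 1 (YY1), nuclear respiratory factor 1 (NRF1), Myc-type factors (E-box) and GATA factors, with letters spelled out below. Mrps6 lies at chr16:92058086-92058385, Mrps27 at chr13:99344536-99344835, Mrpl12 at chr11:120484387-120484686 and Mrpl14 at chr17:45686099-45686398, each on the plus strand.
Mrps6: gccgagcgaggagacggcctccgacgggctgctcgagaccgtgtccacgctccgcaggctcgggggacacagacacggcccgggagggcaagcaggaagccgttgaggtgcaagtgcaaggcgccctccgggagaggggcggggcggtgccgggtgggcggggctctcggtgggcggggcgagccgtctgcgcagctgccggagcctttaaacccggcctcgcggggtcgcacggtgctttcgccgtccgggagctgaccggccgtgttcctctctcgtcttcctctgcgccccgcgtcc
Mrps27: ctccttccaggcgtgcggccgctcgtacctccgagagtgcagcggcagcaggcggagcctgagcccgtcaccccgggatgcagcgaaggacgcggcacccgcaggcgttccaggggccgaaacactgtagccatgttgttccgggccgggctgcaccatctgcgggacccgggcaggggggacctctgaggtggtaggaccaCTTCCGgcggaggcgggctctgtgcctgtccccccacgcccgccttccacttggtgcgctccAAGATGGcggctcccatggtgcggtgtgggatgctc
Mrpl12: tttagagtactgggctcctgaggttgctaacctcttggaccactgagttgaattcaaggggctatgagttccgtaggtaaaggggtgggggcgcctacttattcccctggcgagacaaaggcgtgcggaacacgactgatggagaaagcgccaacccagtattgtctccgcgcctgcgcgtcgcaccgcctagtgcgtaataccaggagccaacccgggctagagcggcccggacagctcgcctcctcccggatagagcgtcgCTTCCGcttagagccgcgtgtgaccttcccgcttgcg
Mrpl14: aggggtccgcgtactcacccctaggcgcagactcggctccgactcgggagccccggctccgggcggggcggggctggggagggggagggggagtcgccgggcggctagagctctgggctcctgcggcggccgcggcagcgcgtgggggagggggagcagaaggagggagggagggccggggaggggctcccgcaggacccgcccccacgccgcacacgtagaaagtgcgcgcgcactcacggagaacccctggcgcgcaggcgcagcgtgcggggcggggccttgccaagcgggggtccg
The Mrps27 window held the ETS core and the YY1 motif and that of Mrpl12 the ETS core, whereas those of Mrps6 and Mrpl14 held none of the 5 motifs.

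Over all listed promoters, the ETS core CGGAAG was in 37 of 68 (54.4%), against 17.2% of 27025 genes. The motif AAGATGG of YY1 was in 13 (19.1%), against 6.48% of all genes. For NRF1, an activator of nuclear genes for mitochondria, the core GCATGCG was in 8 (11.8%), against 3.64%. The E-box CACGTG was in 5 (7.35%), against 7.24%. The GATA motif AGATAA was in 11 (16.2%), against 11.4%. The end of the ETS core and the start of the YY1 motif can share letters, and base composition was not matched. By D218Y call, the ETS core was in 21 of 42 promoters of genes that rose, 2 of 6 that fell and 14 of 20 not called, and the NRF1 core in 5, 2 and 1. The GATA motif was in 5 of the 42, 2 of the 6 and 4 of the 20. A match says that the letters are present and not that a factor binds.

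Many of these genes start back to back with a neighbour. A gene on the opposite strand started within 1000 bases upstream for 25 of 68 (36.8%), against 10.5% of the 27025 genes, and 23 of these neighbours were among the genes tested. Beside the 16 that rose in D218Y, 11 neighbours rose, 3 fell and 2 were not called. Beside the 3 that fell, 1 neighbour rose and 2 were not called, and beside the 4 not called, 2 rose, 1 fell and 1 was not called. Of all genes tested 20.3% rose in D218Y, and of those above the median level 37.6%. No test was made of these counts. The pair Mrpl46 and Mrps11 is counted from both sides. Mrps27 and Ptcd2, whose starts are 108 bases apart, rose by 0.85 and 0.53. Mrpl50 and Zfp189, 93 bases apart, rose by 0.78 and 0.55. Mrpl14 fell by 0.46 while Tmem63b, 131 bases away, rose by 0.32. These neighbours were picked after their values were seen.

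For 8 genes a further probe set was available. In Mrps5 it gave means of 10.18 in D218Y and 9.70 in WT, and the probe set used gave 10.62 in D218Y and 10.13 in WT, the same direction. In Mrpl47, a tunnel-exit protein, the probe sets disagreed. The brighter read 8.86, 8.80 and 8.87 in D218Y cells, against 8.05, 8.18 and 7.95 in WT cells (0.79 ± 0.12, adjusted p 5.89e-05). The dimmer read 6.69, 6.93 and 6.78 in D218Y cells, against 7.19, 6.99 and 6.98 in WT cells, and with the mean of both the change was 0.27 (adjusted p 0.00688).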

How the data were processed

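RNA of 15 G1E cultures, 3 biological replicates of each of 5 lines, was measured on Affymetrix mouse arrays. The authors deposited a log2 value for every probe set in every array, from Partek 6.6 and RMA per the submitters' processing notes. RMA adjusts for background, makes array distributions alike by quantiles and combines the probes of a set. It understates changes of dim genes. No further scaling and no filter was applied. Precision is limited by the number of arrays. Groups and replicate numbers came from the sample titles. P-values measure the spread between the cultures of a line.

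The platform annotation gives 1 gene symbol to 21780 of 28350 probe sets, several to 1618 and none to 4952. The first kind gave 19933 genes. The 77 genes had 85 such probe sets.

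The test was limma's (version 3.58.1, R 4.3.3), from a fit of all 15 arrays with a mean for each line, 6 contrasts and a moderated F test, eBayes, and two-sided calls at an adjusted p under 0.05 (Benjamini-Hochberg over all genes tested). Errors are moderated standard errors (SE). The procedure was tested on simulated data. Alternatives were further quantile normalization or cyclic loess, genes above the median level alone, the compared lines alone, eBayes with trend and robust options, a replicate block, array weights, the mean of probe sets and each array left out. The block was an alternative because same-numbered arrays mostly did not deviate together. Of 30 same-numbered pairs, 3 had a correlation of deviations over 0.1, and the range was -0.505 to 0.407. Pairs with different numbers ranged from -0.408 to 0.535, so some arrays of different lines did deviate together. Contrasts of D218G and D218Y with R216W were added after seeing the data.

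The gene family, the lists and the naming rule were chosen with earlier results of these data known; the rule for members uses names and, among probe sets of a gene, the mean over all arrays. Named were, per contrast, up to 4 rises and 4 falls with the largest change among called genes whose arrays did not overlap, genes called in opposite directions, the Mrps18 paralogs, genes of set roles and up to 2 genes per list. Some genes are also given in contrasts where this rule did not name them, such as Mrps25 and Mrpl50 in D218Y against WT. Those values were picked after they were seen and are not among the values of named genes counted under the alternatives. Promoters came from RefSeq, GRCm38.p6, and the motif letters searched in them were settled after the data had been seen, the NRF1 core being a shortened form. Protein sequences were not used here.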

Additional observations from a re-analysis of the deposited data

Results flagged for a closer look

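In 3 genes, calls against WT ran in opposite directions in different mutants. In each, the difference between these mutants is given from contrasts added after seeing the data. Because the genes were picked by opposite calls in the same fit, a called difference was fixed in advance. The p-values of these differences are therefore no further support. Mrpl55 read 9.53, 9.50 and 9.61 in D218G cells, against 9.13, 9.02 and 9.12 in R216W cells, a difference of 0.46 ± 0.04 (SE, limma adjusted p 6.66e-07). WT cells lay between at 9.35, 9.30 and 9.33, so D218G rose by 0.23 and R216W fell by 0.23, with no overlap of arrays. Mrpl28, a large subunit protein with a bacterial relative, read 9.80, 9.88 and 9.82 in D218G cells, against 9.38, 9.39 and 9.41 in R216W cells, a difference of 0.44 ± 0.06 (adjusted p 4.84e-05). WT cells read 9.61, 9.50 and 9.73. The Mrpl28 rise in D218G against WT was lost without WT replicate 2 (adjusted p 0.0801) or D218G replicate 2 (adjusted p 0.0628) and with these lines fitted alone (adjusted p 0.0846), and its fall in R216W without WT replicate 1 or 3 or R216W replicate 1 or 2 (adjusted p 0.0541 to 0.0969). Mrpl20, a large subunit protein that binds ribosomal RNA early in bacterial assembly, read 9.73, 9.72 and 9.80 in D218Y cells, against 9.34, 9.25 and 9.38 in R216W cells, a difference of 0.43 ± 0.07 (adjusted p 1.49e-04). WT cells read 9.57, 9.58 and 9.51. The Mrpl20 rise in D218Y against WT (0.20, adjusted p 0.0332) was lost without WT replicate 1 or 3 or any D218Y replicate (adjusted p 0.0501 to 0.107). With all arrays it was lost after further quantile normalization (0.16, adjusted p 0.0511) or cyclic loess (0.16, adjusted p 0.058) and with a replicate block (adjusted p 0.0544). Its fall in R216W (-0.23, adjusted p 0.036) was lost without any 1 of the WT or R216W replicates (adjusted p 0.0503 to 0.15) and with a replicate block (adjusted p 0.0663).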

How the results depend on the processing

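Among the named genes, no change called in the main fit or under an alternative had the opposite sign in the other. Sign changes between values not called were not looked for. Rises and falls were counted apart under each alternative, but some counts given below are totals of both. Over the values of named genes, 1400 of those with an array left out kept their side of the threshold, 39 lost a call and 16 gained one. Under the other alternatives 731 kept it, 13 lost a call and 32 gained one. With array weights, 46 genes were called in R216Q against WT, against 29, 29 in R216W against WT, against 15, and 34 in R216W against R216Q, against 14. The weight estimate stopped before reaching its convergence tolerance. R216W against WT gave 23 calls (12 rose, 11 fell) after further quantile normalization, 29 (18 rose, 11 fell) among genes above the median level and 23 (14 rose, 9 fell) with trend and robust options. With the compared lines fitted alone, 18 genes were called in D218G against WT and 9 in R216W against R216Q. That fit has fewer arrays. Where not stated, the cause was not tested.

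Leaving out each array gave 21 to 31 calls in R216Q against WT, 12 to 20 in R216W, 25 to 34 in D218G and 50 to 60 in D218Y. It gave 9 to 14 in R216W against R216Q, 39 to 50 in D218Y against D218G and 56 to 64 for the F test. With the replicate number as a block, 28 genes were called in R216Q against WT, 13 in R216W, 30 in D218G, 54 in D218Y, 10 in R216W against R216Q, 44 in D218Y against D218G and 59 by the F test.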

Other observations

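The probe set shared by Mrpl53 and Ccdc142 cannot be given to either gene. It read 8.71, 8.68 and 8.58 in R216Q, 8.60, 8.67 and 8.74 in R216W, 8.81, 8.81 and 8.75 in D218G and 8.56, 8.57 and 8.53 in D218Y, against 8.88, 8.78 and 8.96 in WT. No mutant array was above the highest WT array, and the R216Q, R216W and D218Y arrays were all below the lowest.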
